A study of Mus musculus with 18 samples.

Results

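H3K27me3, the Polycomb mark on histone H3 lysine 27, was compared between mutant and wild-type mouse epidermis at 401 bp windows of the genome. The authors' deposited table lists the 4285 windows that passed an FDR of 0.05 among 18072 tested (23.7%), and the 4257 listed windows on chromosomes 1 to 19 are described here; the other 28 lie on the X chromosome. The mark was measured by CUT&RUN on suspended epidermal cells; in this assay a nuclease tethered to an antibody cuts out the chromatin that carries the mark. The mutant libraries came from 3 Krt14-Cre(+) mice and the wild-type (WT) libraries from 3 Krt14-Cre(-) mice, 1 library per animal. All 6 animals carried LSL-H3K36M, a construct from which histone H3 with methionine in place of lysine 36 is made once Cre has removed a stop cassette, so the WT animals hold the silent construct. The keratin 14 promoter drives Cre in the basal layer of stratified epithelia and in the cells that descend from it, and cells of other origin in the suspension would not recombine. The labels give neither age nor sex.

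Polycomb repressive complex 2 places H3K27me3, and the mark covers silent developmental genes, above all those of lineages a cell has not taken. H3K36 methylation on the same histone tail hinders the complex, and H3K36M blocks the enzymes that methylate lysine 36. In the epidermis the mark lies over genes of other tissues and helps to hold back programmes of differentiation and of appendage formation until they are called for.

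Each value below is the authors' mean of 3 libraries, in normalised reads per window, so the spread between animals stands behind the deposited FDR and is not shown beside the means. A window is called lower or higher where the mutant mean lies below or above the WT mean at that FDR, and a change is the difference of the 2 log2 means. Because every listed window was chosen by this contrast, counts and sizes are descriptions. Windows that were tested and not called are not listed, and the means are normalised, so the total amount of the mark in each genotype is not known from them. Fewer marked cells and less of the mark in each cell cannot be told apart.

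Gene promoters lying wholly or mostly inside a window give examples of sequence at lower and higher windows. Shown are the 250 bases before the transcription start of 3 genes with a lower window and 3 with a higher one, from RefSeq on GRCm38.p6, 5′ to 3′ on the strand of the gene, with each CG dinucleotide in capitals. CG reads the same on both strands. The 6 genes were picked after their values were seen. Npy (neuropeptide Y, chr6:49822460-49822709, plus strand), Lepr (the leptin receptor, chr4:101717656-101717905, plus strand) and Nmu (neuromedin U, chr5:76363778-76364027, minus strand) are the lower ones. Prlr (the prolactin receptor, chr15:10176988-10177237, plus strand), Acta2 (smooth muscle actin, chr19:34255374-34255623, minus strand) and Rdh7 (a retinol dehydrogenase, chr10:127888734-127888983, minus strand) are the higher ones.
Npy: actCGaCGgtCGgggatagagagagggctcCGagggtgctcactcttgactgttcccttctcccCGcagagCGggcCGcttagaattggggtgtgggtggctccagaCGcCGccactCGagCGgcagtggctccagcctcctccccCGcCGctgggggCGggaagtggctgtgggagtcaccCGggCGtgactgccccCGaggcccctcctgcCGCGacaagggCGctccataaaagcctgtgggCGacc
Lepr: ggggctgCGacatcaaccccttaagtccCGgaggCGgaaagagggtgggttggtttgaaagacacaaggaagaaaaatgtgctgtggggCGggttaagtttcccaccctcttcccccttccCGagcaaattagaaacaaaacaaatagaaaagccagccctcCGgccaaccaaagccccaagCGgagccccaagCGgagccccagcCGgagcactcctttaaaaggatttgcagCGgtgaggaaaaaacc
Nmu: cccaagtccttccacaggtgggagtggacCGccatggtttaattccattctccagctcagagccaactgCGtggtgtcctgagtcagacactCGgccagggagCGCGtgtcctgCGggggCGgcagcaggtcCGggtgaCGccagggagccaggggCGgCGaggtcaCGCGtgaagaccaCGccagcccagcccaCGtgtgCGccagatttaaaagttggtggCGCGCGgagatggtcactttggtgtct
Prlr: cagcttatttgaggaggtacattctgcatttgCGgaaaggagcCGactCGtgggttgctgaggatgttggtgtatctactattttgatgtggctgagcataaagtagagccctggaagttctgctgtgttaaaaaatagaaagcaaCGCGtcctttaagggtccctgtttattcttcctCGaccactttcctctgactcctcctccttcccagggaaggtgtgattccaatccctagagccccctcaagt
Acta2: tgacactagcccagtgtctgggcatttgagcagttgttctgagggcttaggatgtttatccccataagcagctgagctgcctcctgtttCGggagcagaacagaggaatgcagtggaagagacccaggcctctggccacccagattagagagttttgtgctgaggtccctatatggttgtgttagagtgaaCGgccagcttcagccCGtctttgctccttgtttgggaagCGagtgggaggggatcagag
Rdh7: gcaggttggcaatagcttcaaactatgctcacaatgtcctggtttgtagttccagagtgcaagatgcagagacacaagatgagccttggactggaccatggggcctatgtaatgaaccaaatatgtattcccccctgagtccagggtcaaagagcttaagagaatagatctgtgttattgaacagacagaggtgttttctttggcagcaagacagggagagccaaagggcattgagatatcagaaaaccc

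The lower promoters printed held 21 CG in Npy, 10 in Lepr and 19 in Nmu. The higher ones held 6 in Prlr, 4 in Acta2 and 0 in Rdh7, of whose 250 bases 229 lay in the window. Over all 31396 autosomal RefSeq promoters used here the median was 6, and 50.8% held at least 6 CG, 38.3% at least 10 and 16.8% at least 21. The median was 9 for promoters with a lower window and 3 for those with a higher one. The 3 lower ones printed thus held more CG than the median of their kind. In protein-coding genes alone the medians in 300 bases were 13 with a lower window and 14 over all. The examples therefore overstate how far lower windows differ from all promoters. The Npy window went from 78.4 normalised reads in WT to 21.7 in the mutant (FDR 4.46e-09 in the authors' deposited table), the Lepr window from 86.8 to 31.7 and the Nmu window from 44.6 to 14.1. At Prlr the mean went from 5.84 to 18.2 (FDR 0.0125 in the authors' deposited table), at Acta2 from 7.51 to 17.1 and at Rdh7 from 2.31 to 12.5. The WT means of the 3 higher windows thus lay below all mutant means of the 3 lower ones.

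Over the whole set the WT means of lower windows were mostly above those of higher ones, but the ranges overlapped. WT means ran from 2.17 to 206 reads in lower windows and from 1.0 to 41.1 in higher ones. On the autosomes 2718 windows were lower (63.8%) and 1539 higher (36.2%); over all chromosomes, 15.2% of the 18072 tested windows were lower and 8.54% higher. Lower windows had a median of 51.6 normalised reads in WT (quartiles 31.5 and 83.0) and of 21.2 in the mutant; the median ratio of mutant to WT was 0.412. Higher windows had a median of 3.88 in WT (quartiles 2.23 and 6.28) and 14.9 in the mutant, a median ratio of 3.78. The change ran from -3.42 to -0.53 in lower windows, with a median of -1.28. In higher windows it ran from 0.72 to 4.30, with a median of 1.92. WT means over 20 reads were found in 2529 lower windows (93.0%) and in 16 higher ones (1.04%).

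**Figure D1:**
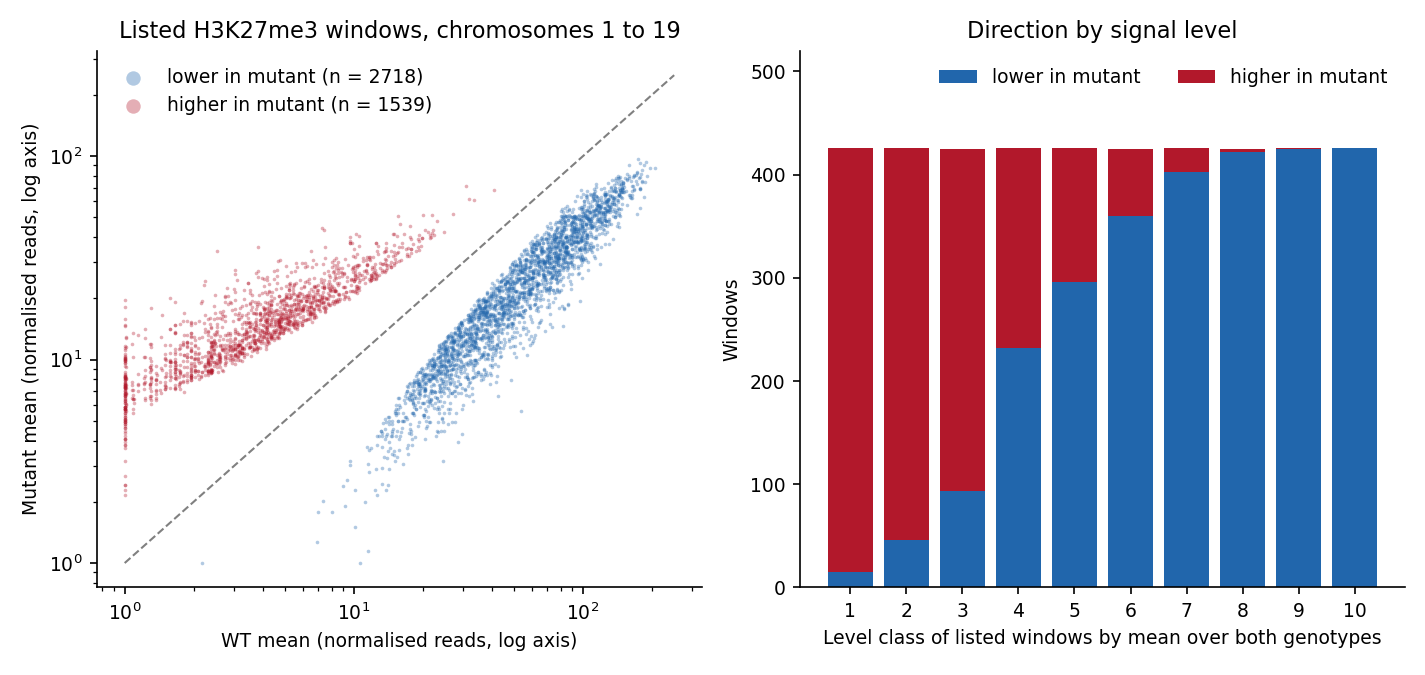
Left, the WT mean against the mutant mean of each listed autosomal window in normalised reads, both on log axes, with equality dashed; the column of points at the left edge is at the floor of 1 read. Right, the number of lower and higher windows in each of 10 classes of equal size by mean over both genotypes: 96.5% of class 1 were higher, and 0 of the 426 windows of class 10.

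The split by level was steep. How far the scaling or background of the libraries, neither of which is known here, shapes it was not tested. The listed windows were put into 10 classes of equal size by their mean over both genotypes. In class 1, from 1.08 to 6.58 reads, 96.5% were higher, and in class 4 45.5%. From 39.6 reads upwards, which takes in the 3 top classes, 4 windows were higher in all. Class 1 held 15 lower windows. At the floor of 1 read were 105 higher windows in WT and 2 lower windows in the mutant, and their changes depend on it. Near the FDR threshold itself, the last window inside it stood at 0.0499 in the authors' deposited table, and windows outside it are not listed.

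Lower windows lay in or close to genes more often than higher ones. In the body of a protein-coding gene were 1453 lower windows (53.5%) and 540 higher ones (35.1%). Farther than 5 kb from any such gene were 937 lower (34.5%) and 889 higher windows (57.8%). Within 1 kb of an end of a gene, where transcription starts or stops, lay 450 lower windows (16.6%) and 43 higher ones (2.79%). The median distance to the nearest gene end was 8078 bp for lower and 25273 bp for higher windows. Within classes of like mean over both genotypes the share in bodies was again larger for lower windows, by amounts that varied from class to class. These classes do not match the WT means of lower and higher windows. In class 1 it was 66.7% of 15 lower and 41.8% of 411 higher windows, in class 2 54.3% and 33.2%, and in class 3 48.4% and 35.2%. In classes 4, 5 and 6 it was 37.5%, 44.9% and 39.7% for lower windows and 29.9%, 26.9% and 27.7% for higher ones, and in class 7 it was 50.1% against 47.8% of 23. Classes 8 to 10 held too few higher windows to set beside the lower ones.

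Promoters with a known sequence lay under lower windows more often than under higher ones. Of 2636 lower windows off chromosome 18, 151 (5.73%) overlapped a RefSeq promoter, taken as the 250 bases before and 50 after a start, and of 1476 higher windows 17 did (1.15%). The RefSeq promoters used cover 16456 of the 20661 autosomal protein-coding genes. Promoters under a lower window held a median of 12 CG in 300 bases, those under a higher window 4 and all promoters 7. In protein-coding genes alone the medians were 13, 6 and 14, so lower windows were then close to all promoters. A ratio of observed to expected CG of at least 0.6 was found in 65 of 167 promoters under lower windows (38.9%), in 0 of 20 under higher windows and in 36.4% of all. In protein-coding genes alone the order of lower windows and all promoters was the other way round, with 50 of 119 under lower windows (42.0%), 0 of 10 under higher windows and 48.9% of all. The 8 genes with the lowest FDR at a lower promoter were Soga3, Slc8a3 (a sodium-calcium exchanger), Mpped2, Sfmbt2 (a Polycomb-group gene), Dscam (a neuronal adhesion molecule), Npy5r (a neuropeptide Y receptor), Ptgfr (the prostaglandin F receptor) and Npy. Sfmbt2 had the highest level of these, 165 reads in WT and 70.9 in the mutant. Receptor and ligand of neuropeptide Y were both among them, with Npy5r at 76.8 and 22.4 reads. On the higher side Prkag2, a subunit of the energy sensor AMPK, came first, with 6.11 reads in WT and 29.9 in the mutant (FDR 3.59e-05 in the authors' deposited table). Ttc39d, Rdh7, Disp1, Prlr, the predicted gene Gm52875, Dab2ip (a Ras GTPase activator) and Acta2 followed, with WT means from 2.31 to 9.69 reads.

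Neighbouring windows changed alike. The median gap between listed windows was 213951 bp, and of 4238 neighbouring pairs 70.8% had the same direction, where the overall split alone gives 53.8%. Of the 34 pairs at most 10 kb apart 33 were alike (97.1%), of those 10 to 50 kb apart 92.7% and of those 50 to 200 kb apart 79.4%. Beyond 1 Mb the share was 55.6%, close to the overall split. Close pairs share signal and sequence context, so they are not independent. The longest unbroken stretch of lower windows held 36 over 12101 kb of chromosome 13 (chr13:47315012-59415854), with the homeobox gene Barx1. The longest of higher windows held 27 over 7446 kb of chromosome 2 (chr2:137009993-144456099), from Jag1, a Notch ligand gene, across Macrod2, an ADP-ribosylhydrolase gene, to Ovol2, an epithelial transcription factor gene. Windows were spread thinly even so: no 3 windows of the same direction followed each other with gaps of at most 10 kb.

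Chromosomes differed in the balance. The share of higher windows ran from 27.05% on chromosome 8 and 27.5% on chromosome 7 to 52.2% on chromosome 3 and 53.3% on chromosome 16. Chromosomes 3, with 128 higher and 117 lower windows, and 16, with 80 and 70, were the autosomes where higher windows outnumbered lower ones. The median size of the change varied little, from -1.34 to -1.21 over the autosomes in lower windows and from 1.73 to 2.02 in higher ones.

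The 1 Mb bins below are named by genes they contain, and their windows need not lie at those genes. At that scale, 1528 bins held a listed window and 487 held both directions. Of the 127 bins with at least 5 lower windows 79 held no higher one, and of the 49 with at least 5 higher windows 30 held no lower one. The bin richest in lower windows, chr8:121000000-122000000, held 17 lower and 1 higher and contains Foxf1, Foxc2 and Foxl1, forkhead genes of mesenchyme, of which Foxf1 and Foxl1 had a window within 5 kb. Its lower windows had a median of 29.3 reads in WT and 10.5 in the mutant. Another, chr5:119000000-120000000, with the limb and gland T-box genes Tbx3 and Tbx5, held 10 lower and 0 higher windows at medians of 83.5 and 26.3 reads. Bins with 9 lower and 0 higher windows held the chemokine genes Ccl2, Ccl7, Ccl8 and Ccl11 on chromosome 11 and, on the same chromosome, the Hoxb cluster. No listed window lay within 5 kb of those chemokine or Hoxb genes. The windows assigned to a gene lay at Tmem132e and Unc45b in the first bin and at Igf2bp1 and Skap1 in the second. The richest bin for higher windows, chr5:64000000-65000000, held 11 and contains Klf3, a Krüppel-like repressor gene, and Tlr1 and Tlr6, genes of innate immune receptors. Next came 10 higher windows in the bin of Pik3r1, which encodes a regulatory subunit of PI3 kinase (chr13:101000000-102000000), 0 of them in a gene body, with a WT median of 3.31 and a mutant median of 11.7 reads. The bin of Gata3 also had 10, that of Jag1 had 8, and those of Epha4, an ephrin receptor gene, and of Btg1, an antiproliferative gene, had 7 each.

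Around Trp63, which encodes p63, the master regulator of stratified epithelia, all listed windows were higher. The strongest lay in the gene at chr16:25690029-25690429 and went from 2.52 to 34.2 normalised reads, a change of 3.76 (FDR 2.49e-08 in the authors' deposited table). It is the window with the highest mutant mean of the 12 within 1500 kb of the gene's lower-coordinate end, whose other mutant means ran from 6.12 to 18.3 and WT means from 1.095 to 5.37. Those 12 made an unbroken stretch of higher windows over Lpp, Tprg, Trp63 and P3h2. The next nearest, 190 kb below and 521 kb above, had 1.73 and 5.37 reads in WT and 7.38 and 18.3 in the mutant, so a rise was listed on both flanks.

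Around Gata3, a regulator of hair follicle and epidermal barrier genes, windows of both directions lay side by side. None of them lay in the gene or within 5 kb of it. A stretch of 14 higher windows lay below the gene (chr2:8767136-9848245) with no protein-coding gene among them, and 1 more above it. Their WT means ran from 1.08 to 4.92 reads and their mutant means from 6.48 to 23.7. The lower window nearest to the gene, at chr2:9894751-9895151, went from 119 to 50.9 reads (FDR 4.97e-08 in the authors' deposited table). It lay 46.5 kb from the nearest higher window, whose means were 2.75 and 11.4. Of the 15 higher windows, 11 lay in a domain called lower for H3K36me2. That number was 1 of 12 around Trp63, 2 of 14 in Macrod2 and 0 of 4 around Foxf1.

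Foxf1 gave the reverse picture. Within 1500 kb were 25 lower and 4 higher windows, and the lower ones filled the range from 350 kb below to 473 kb above the gene without a higher one between. Their WT means ran from 2.17 to 138 reads and their mutant means from 1.0 to 63.1. The window 2.36 kb below the gene had 101 and 58.1 reads. The higher windows stood outside that range, the strongest 821 kb below with 19.98 and 51.2 reads.

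**Figure D2:**
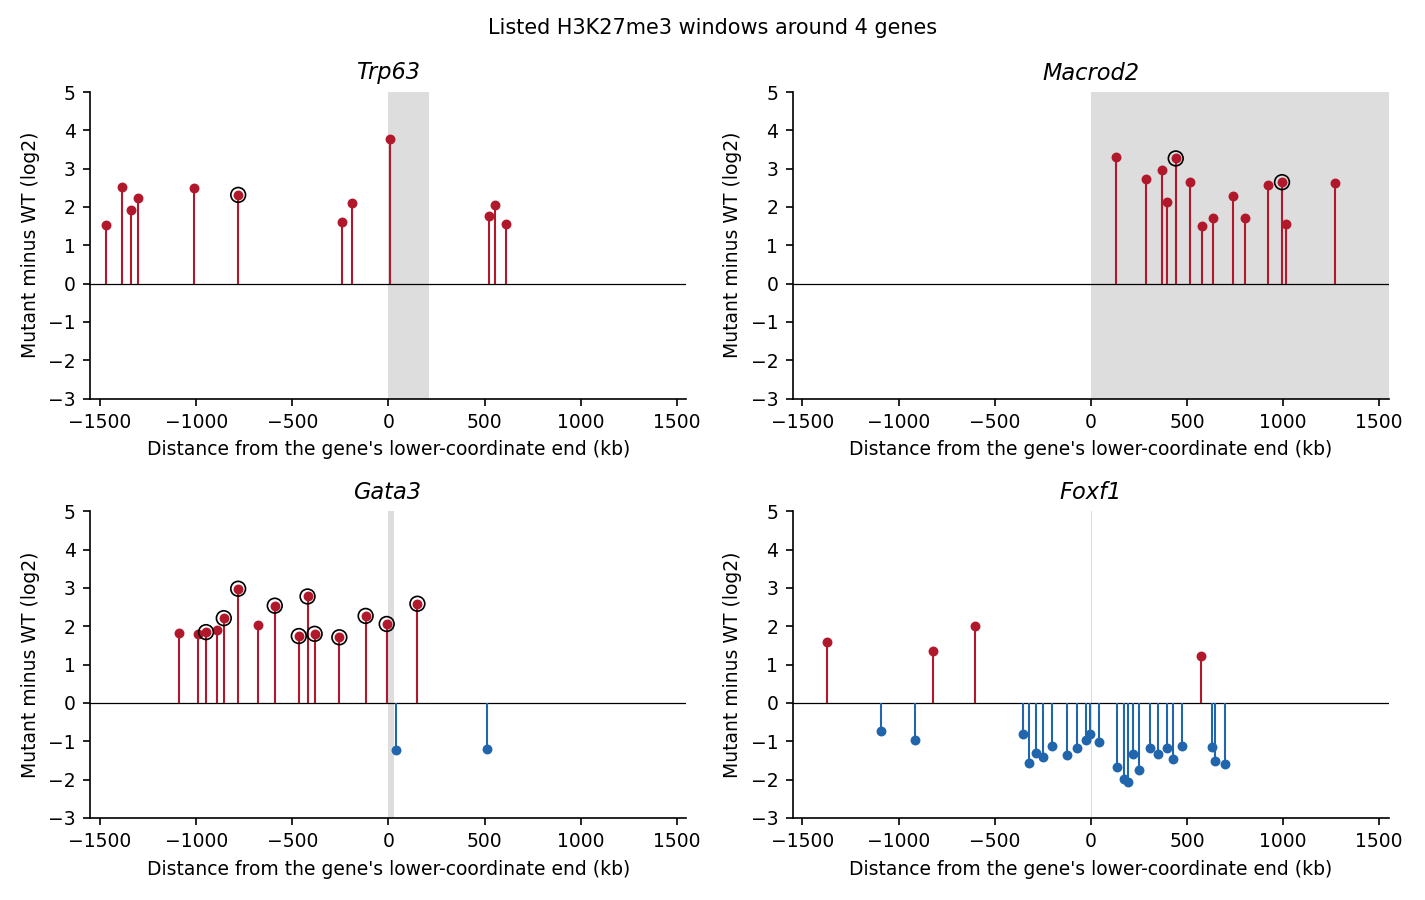
Change (mutant minus WT, log2) of each listed window against its distance in kb from the lower-coordinate end of Trp63, Macrod2, Gata3 and Foxf1, with the gene body shaded, lower windows in blue, higher in red, and a ring around windows in an H3K36me2 island called lower. Trp63 has 12 higher and 0 lower windows within 1500 kb, Macrod2 14 higher ones inside the gene, Gata3 15 higher and 2 lower, and Foxf1 4 higher and 25 lower.

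Macrod2 held the most higher windows of any gene, 14, and no lower one. All lay within its body, with WT means from 1.0 to 6.37 reads, a median of 2.92, and mutant means from 8.56 to 22.0, a median of 13.9. Auts2, a neurodevelopmental gene, and Cep112, a centrosomal gene, held 5 each. Auts2 windows ran from 1.0 to 8.42 reads in WT and from 8.25 to 21.5 in the mutant. Vav3, a guanine nucleotide exchange factor gene, held 4, the strongest at 1.66 and 19.3 reads. Specc1 held 4 higher windows and 1 lower one, and Abca4, a retinal transporter gene, 3. All of these genes are long, and a long gene has more room for windows.

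The 6 genes with most lower windows held 6 each. They were Camta1, a calmodulin-binding transcription activator, Dab1, an adaptor of reelin signalling, Npas3, a neuronal transcription factor, Phactr1, a phosphatase and actin regulator, Prdm16, which directs brown fat fate, and Rap1gap2, a Rap1 inhibitor. Their levels varied within a gene. In Prdm16 the window closest to a gene end had 180 reads in WT against 75.8, and the other 5 had 20.7 to 54.5 in WT and 8.41 to 16.1 in the mutant. In Rap1gap2 the strongest had 142 and 46.7 reads and the weakest 17.6 and 6.36.

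Over 20661 autosomal protein-coding genes, 1605 had a lower window in the body or within 5 kb (7.77%) and 577 a higher one (2.79%). In bodies alone the shares were 5.97% and 2.19%. Of the genes with a window in the body or within 5 kb, 1566 had lower windows only, 538 higher only and 39 both. The median length was 41740 bp with lower windows only, 71531 bp with higher only and 265104 bp with both, against 17491 bp over all these genes. At least 3 lower windows were found at 54 genes and at least 3 higher ones at 17.

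The largest falls by difference of means were spread over unrelated genes. A window shared by Ifna11 and Ifna7, genes of type I interferons, went from 11.5 to 1.15 reads, a change of -3.32. The interferon genes are near-identical copies, so reads there may belong to other members. Next came Ntm, a neuronal adhesion gene (24.5 to 3.17 reads), Myo5b, a motor of recycling endosomes (29.7 to 4.30), and Rims4, a synaptic gene (10.2 to 1.51). Agap2, an Arf GTPase activator gene, went from 42.5 to 6.65, and Nrg1, which encodes neuregulin 1, from 48.5 to 7.98. Camta1, Myo18b and Phactr1 completed the 10, with changes of -2.60, -2.54 and -2.48. These folds start at levels below the median of lower windows except at Phactr1 (81.6 reads in WT).

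The largest rises were led by Togaram2, a ciliary microtubule gene, from 1.30 to 18.02 reads, a change of 3.80, and by Trp63. Then came Rbms1, an RNA-binding protein gene (1.02 to 12.8), Vav3, Vps13d, a lipid transfer gene (1.15 to 13.2), Elovl5, a fatty acid elongase gene (1.22 to 14.1), and Efna5, an ephrin gene (1.46 to 16.5). Tmem241 went from 1.01 to 10.3. Among these only Trp63 passed 2 reads in WT, so each ratio rests on a small denominator.

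Lists of genes by role show where among functional groups the windows lay. A listed window requires that the mark be there to be measured, and nothing is listed for genes whose windows were not called, so each share is set beside that of all genes, 7.77% for lower and 2.79% for higher windows. Among lists of more than 4 genes, the highest share of lower genes was in homeobox transcription factors. Of 103 homeobox genes outside the Hox clusters 70 had a lower window (68.0%) and 0 a higher one. Their lower windows had a median of 108 reads in WT and 55.5 in the mutant. Lmx1b, which patterns the dorsal limb, had the lowest FDR of all listed windows (3.96e-15 in the authors' deposited table) at chr2:33631704-33632104; it went from 185 to 63.1 reads. Pax2 and Pax8, kidney and thyroid regulators, went from 177 to 69.2 and from 177 to 70.0 reads, Emx1, a cortical regulator, from 181 to 74.5, and Barhl1, an inner ear and brain regulator, from 167 to 68.5.

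Forkhead, Sox, T-box, Gata and basic helix-loop-helix genes were similar, with 49 of 79 lower (62.0%) and 1 higher. Tcf21, a mesenchymal regulator, went from 105 to 30.1 reads and Twist2, a dermal one, from 130.0 to 46.3. Tbx5 had 197 reads in WT, among the highest of all, and 87.0 in the mutant, and T, the brachyury gene, 164 and 64.1. The gene with a higher window was Foxp1, from 1.87 to 10.7 reads in its body. With gene bodies only 23 of the 79 were lower, and the rest had their window beside the gene.

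By share of genes, the Hox list stood near the background: 3 of 39 had a lower window (7.69%) and 0 a higher one. Hox genes lie close together in clusters and each window is 401 bp, so this share does not measure how much of a cluster was lower. Hoxd13 went from 87.1 to 38.5 reads, Hoxd3 from 107 to 54.5 and Hoxa11 from 90.8 to 46.7. Hox genes set position along the body, and the WT levels of the 3 lay at or below the median of 108 reads found at the other homeobox genes. Whether the windows of the other 36 were tested is not known from the listed ones.

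**Figure D3:**
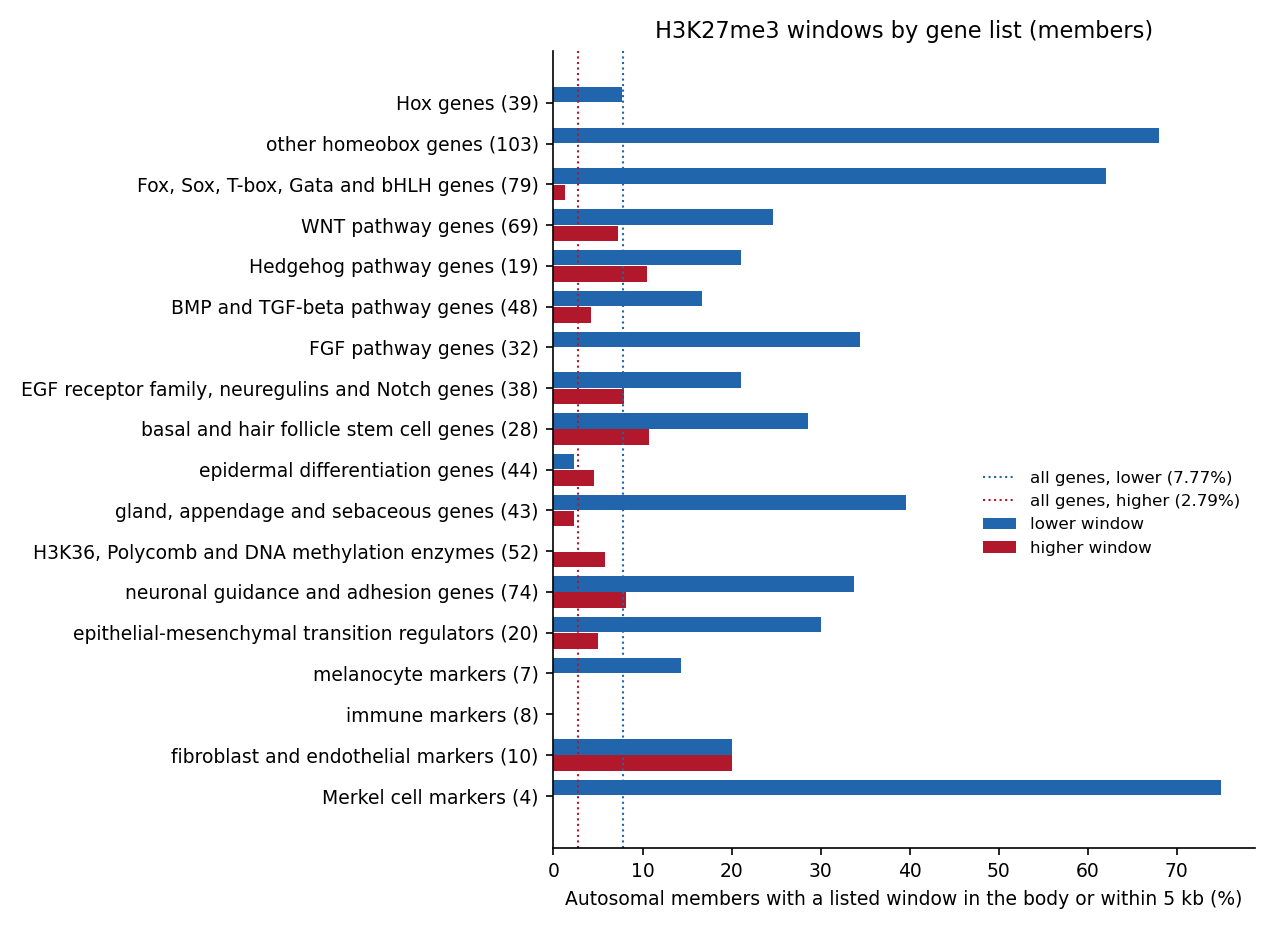
Percentage of the autosomal members of each gene list (number of members in brackets) with a lower window, blue, or a higher window, red, in the body or within 5 kb; dotted lines mark all 20661 genes, at 7.77% and 2.79%. The non-Hox homeobox genes (68.0% lower) and the Fox, Sox, T-box, Gata and bHLH genes (62.0% lower) reach far past the lines, Hox genes (7.69%) do not, and small lists such as 4 Merkel cell genes move in large steps.

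In the basal and hair follicle stem cell list 8 of 28 genes had a lower window (28.6%) and 3 a higher one (10.7%), and 17 had none. Higher were Trp63, Dst, whose product ties keratin to hemidesmosomes (5.07 to 20.5 reads), and Itga6, the integrin of hemidesmosomes (5.28 to 17.0). Among the lower were Lgr5, the receptor that marks follicle stem cells (119.5 to 35.9 reads), Lhx2 (98.0 to 31.2), Tbx1 (95.6 to 44.0) and Sox9 (65.5 to 34.0). Itga3, an integrin subunit that binds laminin in the basal layer, went from 53.3 to 12.05 reads.

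Epidermal differentiation genes were near or below the background for lower windows, 1 of 44 (2.27%), and had 2 higher (4.55%). The lower gene was Prdm1, a transcriptional repressor with roles in keratinocyte terminal differentiation and in the sebaceous gland (36.2 to 12.9 reads). The higher ones were Lor, which encodes loricrin of the cornified envelope (7.61 to 20.1), and Rptn, repetin (1.59 to 9.77). In gland, appendage and sebaceous genes 17 of 43 had a lower window (39.5%) and 1 a higher one (2.33%), Prlr. Pgr, the progesterone receptor gene, went from 105 to 34.8 reads and Msx1, an appendage homeobox gene, from 95.3 to 28.2. Foxi3, an ectodermal placode gene, went from 123 to 52.4, Aqp5, the water channel of secretory glands, from 126 to 59.6, and Lef1, a WNT effector of hair and gland buds, from 104 to 44.5. Esr1, Pthlh, Krt18, Krt19, Pparg and Lalba were among the others with a lower window, and 6 of the 17, Msx1, Foxi3, Foxc1, Sox9, Sox10 and En1, also belong to the lists of transcription factors. Gene bodies alone gave 10 of the 43.

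Of 19 Hedgehog pathway genes 4 had a lower window (21.1%), 2 a higher one (10.5%) and 13 none. The 3 ligands were lower: Shh from 75.1 to 41.3 reads, Ihh from 45.3 to 16.3 and Dhh from 60.4 to 27.2. Hhip, a decoy that binds them, went from 80.9 to 46.2. Higher were Disp1, which releases the ligands (6.30 to 20.7), and Cdon, a co-receptor (6.0 to 17.3). The higher windows are few and their FDRs, 0.00575 and 0.0200 in the authors' deposited table, lie nearer the threshold than those of most genes named above.

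Of 69 WNT genes 17 had a lower window (24.6%) and 5 a higher one (7.25%). Among the lower were the secreted antagonists Dkk1 (144 to 67.2 reads), Sfrp2, Wif1, Sost and Notum, the ligands Wnt2 (84.6 to 33.5), Wnt1, Wnt7a and Wnt8b, and the receptors Lgr5 and Lgr6. Daam2, which links WNT signals to actin, went from 69.0 to 23.5. Its paralogue Daam1 was higher, from 15.0 to 41.4 reads (FDR 3.12e-04 in the authors' deposited table). The other higher genes were Sfrp1 (10.4 to 25.3), Wnt7b (6.37 to 18.1), Wnt5b (9.69 to 23.1) and the receptor Fzd2 (9.55 to 19.95). Wnt5b shares its window with the promoter of Gm52875.

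Of 48 BMP and TGF-beta genes 8 were lower (16.7%) and 2 higher (4.17%). The lower ones held ligands and inhibitors: Grem1, a BMP antagonist (104 to 39.7 reads), the ligands Gdf6 (166 to 79.4) and Gdf7 (143 to 79.4), the inhibitory Smad6 (55.5 to 22.4) and Ltbp2, a matrix protein (79.9 to 41.6). The higher were both receptors, Tgfbr3 (1.0 to 8.67) and Bmpr1a (1.01 to 7.42). FGF genes had 11 of 32 lower (34.4%) and 0 higher, with Fgf23, a phosphate hormone, from 115 to 43.9 reads, Fgf2 from 98.7 to 40.5, Fgf5, which ends hair growth, from 33.1 to 6.25, Fgf12 from 77.7 to 37.2 and the receptor Fgfr1 from 55.2 to 15.4. In the EGF receptor, neuregulin and Notch list 8 of 38 were lower (21.1%) and 3 higher (7.89%). Nrg1 held 3 lower windows, the one with the lowest FDR at 86.4 and 18.6 reads, and its receptor Erbb4 went from 104 to 39.7. The Notch ligand Dll4 went from 97.0 to 31.6, and the Notch targets Hey2 from 140 to 45.4 and Heyl from 76.1 to 27.05. Higher were the growth factor genes Areg (4.18 to 14.5) and Nrg4 (7.30 to 18.9) and the Notch coactivator Maml2 (1.0 to 5.70). With gene bodies only 5 of the 38 were lower and 1 higher.

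Neuronal guidance and adhesion genes had 25 of 74 lower (33.8%) and 6 higher (8.11%). Dscam went from 121 to 45.3 reads, Slit2, a guidance ligand, from 131 to 54.1, Sema5b from 82.9 to 28.7, Ntm from 112 to 45.3 at the window with its lowest FDR, and Ephb1 from 88.2 to 32.8. Higher were Efna5, Ephb3 (17.7 to 39.0), Unc5b (9.76 to 24.5) and Ephb6 (7.24 to 19.8). Slit3 and its receptor Robo1 had windows both ways. Slit3 held lower windows at 61.9 to 32.5 and at 52.4 to 20.2 reads and between them a higher one at 3.82 to 12.6. Robo1 held a lower window at 83.7 to 32.4 and a higher one at 6.51 to 18.2.

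The list of H3K36, Polycomb and DNA methylation genes had 0 of 52 lower and 3 higher (5.77%). Sfmbt2, the Polycomb-group gene named above for a lower window on its promoter, is not in that list. With gene bodies only 1 of the 52 was higher, where 2.19% of all genes were. Tet1, which oxidises methylcytosine, had an unusually high start for a higher window and went from 26.99 to 52.1 reads. Phc2 (16.1 to 30.8) and Pcgf5 (3.904 to 11.4) encode subunits of Polycomb repressive complex 1. Their FDRs were 0.0450 and 0.0473 in the authors' deposited table, close to the threshold, and that of Tet1 was 0.00922. Regulators of the epithelial-mesenchymal transition had 6 of 20 lower: Twist2, Prrx1 (190 to 79.5), Zeb1 (93.8 to 37.99), Zeb2 (99.1 to 47.5), Cdh2 (106 to 53.2) and Vim (38.7 to 12.5). Tcf4 was higher, from 1.74 to 8.66.

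Markers of cells other than keratinocytes, whatever their origin, were checked in the same way, since the part of such cells in these results was not tested. Merkel cell genes had 3 of 4 lower, Atoh1 (143 to 73.1 reads), Sox2 (102 to 39.3) and Isl1 (92.4 to 40.2), all developmental regulators held in the lists above as well. With gene bodies only 1 of the 4 was lower. Melanocyte genes had 1 of 7 lower, Sox10 (60.3 to 33.7), and 0 higher. Immune markers had 0 of 8 in either direction. Fibroblast and endothelial genes had 2 of 10 lower, Pdgfra (132 to 70.2) and Vim, and 2 higher, Pecam1 (4.05 to 24.8) and Vwf (3.30 to 13.4). A histone mark is not expression, so these values do not measure how many such cells were present, and the epidermal label could not be tested with them.

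MicroRNA genes were looked up by their hairpins. Of 919 autosomal hairpin genes 22 had a lower window within 5 kb (2.39%) and 5 a higher one (0.544%). Mature sequences are shown, from RefSeq on GRCm38.p6, for the hairpin with the largest fall of those overlapping a window, Mir153, for the strongest lower windows, at Mir1247 and Mir129-2, and for the Mir34 pair that shares a window, with bases 2 to 8, the seed that pairs with targets, in capitals.
miR-153-3p: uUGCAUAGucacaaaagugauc
miR-1247-5p: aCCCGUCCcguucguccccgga
miR-129-5p: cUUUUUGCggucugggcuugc
miR-34b-3p: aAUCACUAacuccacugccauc
miR-34c-3p: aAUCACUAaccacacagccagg

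The 3p arms of miR-34b and miR-34c share the seed AUCACUA, and the other seeds shown differ from it and from each other. The Mir34b and Mir34c hairpins lie on chromosome 9 within 600 bp of a window that went from 66.2 to 31.1 normalised reads. Both are known targets of p53. At Mir153, within Ptprn2, the mean went from 25.7 to 4.84 (chr12:117250747-117251147, FDR 4.25e-05 in the authors' deposited table). Mir1247, next to Dio3 in an imprinted region, went from 163 to 62.1 and Mir129-2, a brain miRNA, from 148 to 58.1. Mir135a-1 (137 to 59.7) and Mir7-2 (121 to 53.4) had their windows over 4 kb away. The 5 hairpins near higher windows were Mir8120, Mir7680, Mir6347, Mir6715 and Mir8095, with WT means from 3.48 to 9.59 reads.

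H3K36me2, measured in the same 6 animals, is a mark that H3K36M acts on, and how H3K27me3 lay against it was the last comparison. The authors' islands of H3K36me2 are domains called on reads pooled per genotype, so a lower or higher island compares 2 pools, not animals. Of 12908 autosomal islands 60.2% were lower and 17.3% higher, and their median log2 fold was -0.32, and a difference in scaling and a general loss of the mark cannot be told apart there. Most H3K27me3 windows of either direction lay outside these islands, but higher ones overlapped them more often: 288 of 1539 higher windows (18.7%) did so, against 6 of 2718 lower ones (0.221%). The islands cover 3.18% of the span they lie in. Within 50 kb of an island were 75.1% of higher and 11.9% of lower windows, and the median distance was 16062 bp and 168967 bp.

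This contrast was also seen within classes of like mean over both genotypes, though these classes do not match the WT means. In class 1 31.6% of 411 higher and 6.67% of 15 lower windows lay in islands, and in class 2 22.1% of 380 and 6.52% of 46. The ratio of the shares was thus smaller there than over all windows. In class 3, from 9.66 to 12.8 reads, 49 of 332 higher windows (14.8%) and 1 of 93 lower ones (1.08%) lay in islands. In class 4 the shares were 9.28% of 194 and 0 of 232, and in class 5 4.62% of 130 and 0 of 296. In class 6 the share was 1.54% of 65 against 0.278% of 360, so at that level few windows of either kind lay in islands. The median distance to an island was still 49884 bp for higher and 154060 bp for lower windows there.

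**Figure D4:**
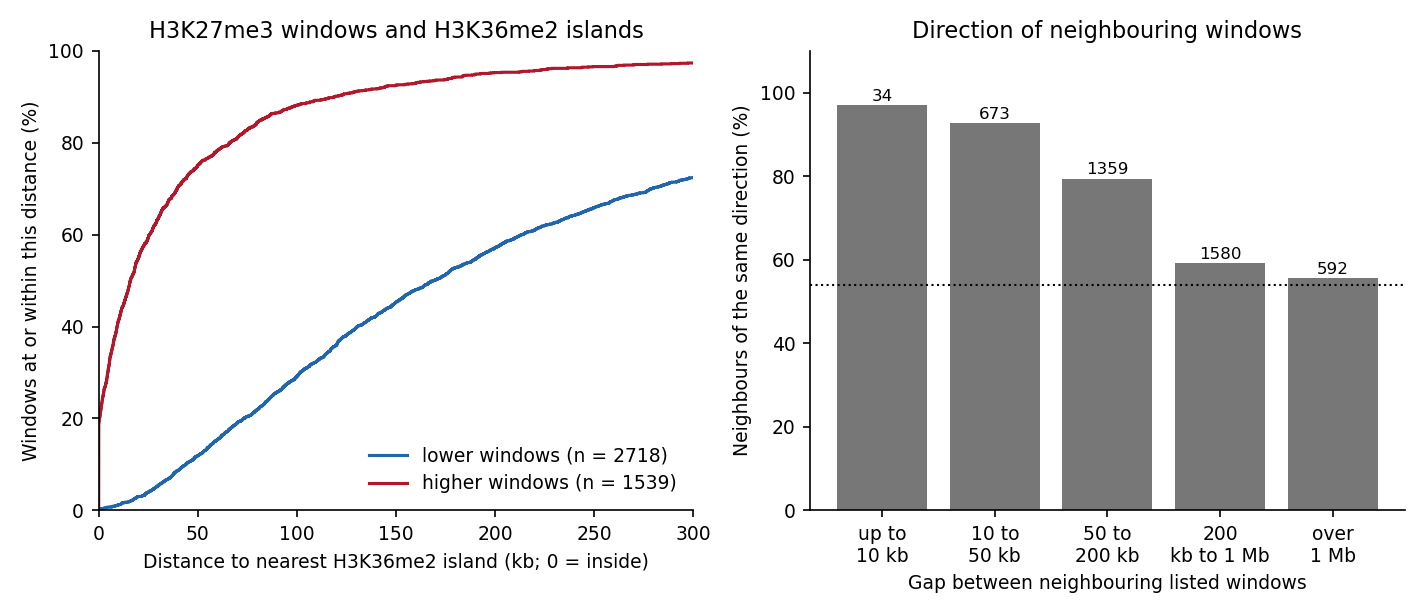
Left, the cumulative percentage of lower (blue) and higher (red) windows within a given distance in kb of the nearest H3K36me2 island, where 0 is inside. The higher curve starts at 18.7% and passes 75.1% at 50 kb; the lower curve starts at 0.221% and reaches 11.9%. Right, the percentage of neighbouring listed windows with the same direction by the gap between them, with the number of pairs above each bar and the 53.8% of the overall split dotted; it falls from 97.1% up to 10 kb to 55.6% over 1 Mb.

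The islands that held a higher H3K27me3 window were nearly all lower in H3K36me2. Of 286 such islands 267 were lower (93.4%), 2 higher and 17 neither, and their median log2 fold was -0.54, which is 0.23 below the median of all islands. Relative to that median, 243 of the 286 (85.0%) lay below it. The excess of lower islands was found in and outside gene bodies: in bodies 86.4% of 88 were lower, against 45.0% of all islands there, and outside them 96.5% of 198 against 78.3%. Among all islands at least 6600 bp wide, the median width of islands with a higher window, 72.7% were lower. Put the other way, 3.44% of lower islands, 0.586% of those called neither way and 0.0895% of higher islands held a higher window.

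The size of the H3K27me3 rise did not follow the size of the H3K36me2 fold among windows in islands. Over 288 windows Pearson's r was -0.0006 and Spearman's rho 0.01, given as a description, since windows share libraries and many rest near the floor. The median of higher windows in islands went from 2.46 to 11.2 reads, that of higher windows outside from 4.21 to 15.8. The strongest in a lower island by FDR, away from genes at chr12:39744921-39745321, went from 1.58 to 20.1 normalised reads of H3K27me3, in an island for which the authors' deposited table gives 110 and 140 reads (mutant, WT) and a depth-scaled ratio of 0.626. Aff3, a transcription elongation gene, went from 3.32 to 21.9 (island ratio 0.619 in the authors' deposited table) and Palld, an actin scaffold gene, from 2.15 to 18.9 (island ratio 0.532 in the authors' deposited table). Zhx1, a zinc finger and homeobox gene, went from 2.75 to 20.6, Bfsp1, a lens filament gene, from 4.25 to 21.5 and Oxr1, an oxidation resistance gene, from 4.25 to 21.8. The 2 higher windows in islands called higher lay in Xdh (1.0 to 4.72 reads) and Atg7 (1.02 to 6.74), both at or near the floor in WT.

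The 6 lower windows in islands were exceptions. They lay in Camta1, Mical2, Morn1, Adamts17 and Lasp1 and at chr7:129980785-129981185, and 4 of their islands were called neither way. At Mical2, an actin-oxidising enzyme gene, H3K27me3 went from 15.3 to 4.19 reads in an island whose ratio was 2.10 in the authors' deposited table. At Morn1 it went from 11.5 to 3.06 in an island called lower, whose ratio was 0.821 in the authors' deposited table.

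The H3K36me2 window table allows the marks to be set side by side at the same 401 bp, with less strength, since none of its 730 listed windows passes an FDR of 0.05. The smallest is 0.139, and the 730 are 4.04% of those tested, chosen by a nominal p under 0.05, in the authors' deposited table. Such a cut would list a share of about 0.05 if nothing changed, so the 730 are no more than that. Both tables list 214 of the same windows, 5.03% of the H3K27me3 and 29.3% of the H3K36me2 windows, and in 165 (77.1%) the marks changed in opposite directions. Of 99 shared windows higher in H3K27me3, 88 were lower in H3K36me2 (88.9%). Of 115 lower in H3K27me3, 77 were higher in H3K36me2 (67.0%). H3K36me2 levels were low, with medians of 2.15 reads in WT and 7.48 in the mutant at the 77. At the 88 they were 11.1 and 4.46. Among all 730, 69.5% were lower, so the lower H3K27me3 windows held the minority direction of H3K36me2.

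**Figure D5:**
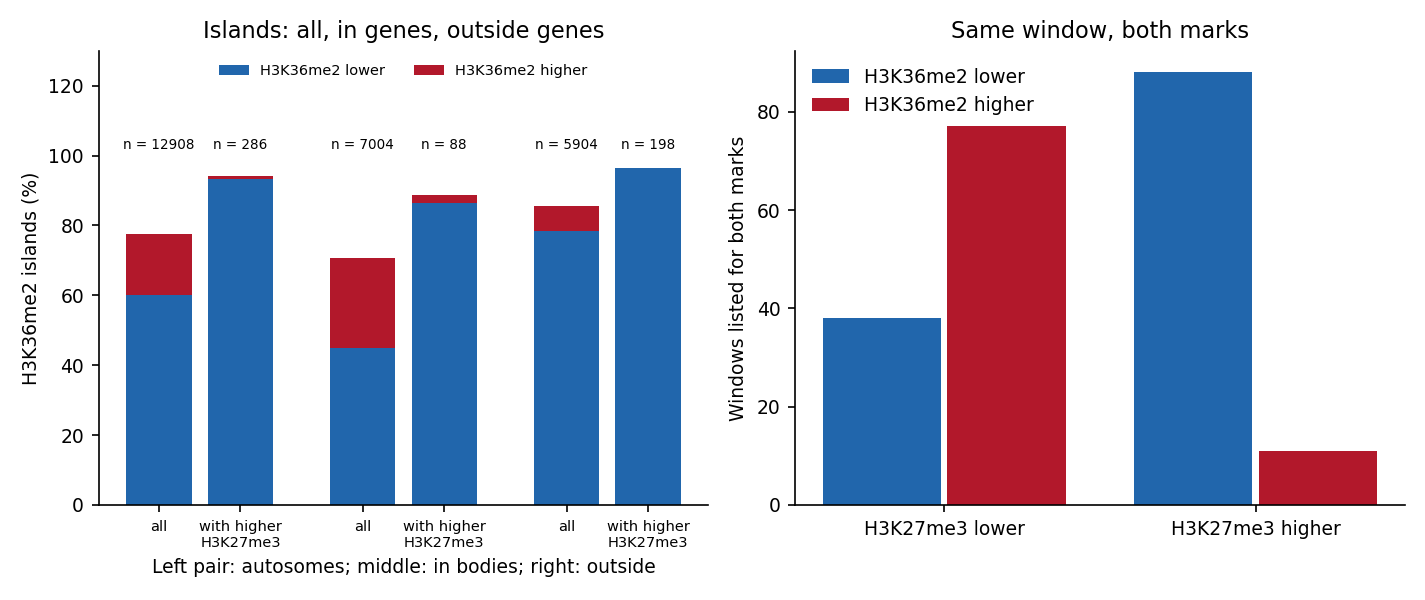
Left, percentage of autosomal H3K36me2 islands called lower (blue) or higher (red), for all islands and for those with a higher H3K27me3 window, over the autosomes, in gene bodies and outside them, with their number above. Islands with a higher window are lower in 93.4%, 86.4% and 96.5%, against 60.2%, 45.0% and 78.3% of all. Right, number of windows listed for both marks by direction: 88 of 99 with higher H3K27me3 have lower H3K36me2, and 77 of 115 with lower H3K27me3 have higher H3K36me2.

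At the window shared by Dlx1, a forebrain and craniofacial homeobox gene, and Metap1d, H3K27me3 went from 143 to 55.8 reads and H3K36me2 from 2.81 to 10.2. Rxfp3, a relaxin family receptor gene, had 138 and 52.9 reads of H3K27me3 and 4.34 and 10.5 of H3K36me2. At Pcdh8, a protocadherin gene, the values were 139 and 57.8 for H3K27me3 and 3.75 and 9.22 for H3K36me2. Pde8a, a cAMP phosphodiesterase gene, showed the other direction, from 3.08 to 24.6 reads of H3K27me3 and from 10.8 to 4.65 of H3K36me2. The genes named here were picked by their H3K27me3 FDR among windows of opposite direction.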

How the data were processed

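CUT&RUN libraries of IgG, H3K36me2 and H3K27me3 from mouse epidermis form 6 groups of 3. Reads of 37 bp, paired, were mapped by Bowtie2 to mm10 (GRCm38), and SICER, DESeq2 and DiffBind were used, per the submitters' processing notes; their versions, the scaling of libraries and any spike-in or removal of duplicates are not stated in the labels or headers. Per the file headers, the authors deposited log2 mean normalised reads per genotype, a shrunken log2 fold, a p-value and an FDR for each 401 bp window. They also deposited read counts per genotype, RPM, a fold (ratio) and p-values for H3K36me2 islands, per the file headers. No column belongs to a single library, so depth per library is unknown and only the authors' tests across animals are used. IgG was not analysed here.

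The number of windows tested, 18072, was inferred from FDR over p in the first row. Log2 means were converted to normalised reads, and the floor of these means is 1 read. Windows were assigned to RefSeq (GRCm38.p6) protein-coding genes by an overlap of at least 1 bp with the body or 5 kb beside it; that table gives no strand. Islands were called changed at the authors' FDR under 0.05. Overlaps and distances were computed with Python 3.11.15, pandas 2.3.3 and numpy 2.4.6 and tested on simulated data. Named genes were the 10 largest falls and rises (1 window per gene, means above the floor), the 6 genes with most windows per direction, up to 5 members of each list per direction by FDR, list members with both directions, and up to 8 genes per direction with a window on a promoter; others were chosen after their values were seen. Some genes that this rule names are not reported here. The members, lists and rules were chosen with earlier results of these data known. The alternatives tried were a stricter FDR, the floor, the level, the shrunken fold and the distance to genes.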

Additional observations from a re-analysis of the deposited data

How the results depend on the processing

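Of 81 alternative values, 17 for the counts, shares and medians below and 10 for gene lists moved by more than 1.5 times, an exact 95% binomial interval of a share or 0.1 in a median log2 change. With gene bodies only, higher genes numbered 3 in the WNT list and 1 each in the Hedgehog, EGF receptor and Notch, methylation enzyme and fibroblast and endothelial lists; the moves of lower genes in lists stand beside their counts, except for 1 lower fibroblast and endothelial gene. With an FDR under 0.01 there were 2080 lower and 637 higher windows, so the higher ones were thinned more; 706 higher windows had an overall mean of at least 10 normalised reads. The deposited shrunken fold had a median of -1.10 in lower and 1.22 in higher windows, and at FDR 0.01 the median change of higher windows was 2.11. In gene bodies lay 55.7% of lower and 32.3% of higher windows at FDR 0.01, 50.3% of lower windows when whole windows had to lie inside, and 65.5% and 42.2% with 5 kb added on each side. In islands lay 16.01% of higher windows at FDR 0.01 and, as an alternative chosen after seeing the data, 17.6% without windows under 1.1 reads. Genes with higher windows only numbered 1049 with 20 kb on each side and 225 at FDR 0.01, and genes with both directions 72 and 9. Runs of at least 3 windows appeared only with gaps of 20 kb, 2 lower and 3 higher. The moves with fewer or more windows and with wider margins follow from their construction; the cause of the shift in medians at FDR 0.01 was not tested.

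No paired analysis was possible because the tables hold no column of a single library, and the genotypes are different animals. Leaving out each library in turn was not possible for the same reason. Depth per library is unknown. The median WT mean of higher windows was 3.88 reads, and 105 were at the floor.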

Other observations

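On the X chromosome, which is outside the set described above, 24 listed windows were lower and 4 higher. The median of the lower ones was 50.8 normalised reads in WT against 21.8, where the autosomal medians were 51.6 and 21.2.

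Several other long stretches of higher windows are named here by genes they span, and their windows need not lie at those genes. One of 18 windows on chromosome 11 (chr11:19028276-24350190) spans Spred2, an inhibitor of Ras signalling, and Peli1, a ubiquitin ligase gene of immune signalling. Another of 15 on chromosome 13 (chr13:110403459-112449588) holds Map3k1, a stress-activated kinase gene, and 1 of 11 on chromosome 1 (chr1:76868508-77544612) surrounds Epha4. These stretches were chosen after their values were seen. Higher windows outside islands but within 50 kb of one had a lower island as their nearest in 81.2% of 868 cases, against 54.3% of 317 for lower windows. Over all autosomal islands 60.2% were lower, with 78.3% outside gene bodies and 45.0% in them. The nearest islands were not split in this way, and higher windows lay in bodies less often than lower ones.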
